A study of Mus musculus with 12 samples.

Results

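The genes of synaptic vesicles and of transmitter release were followed in mouse retina at stage E15.5, in retinas with a Tbr2 deletion and in wildtype retinas. The set held 74 protein-coding genes of the 19954 genes listed, 16220 of them protein-coding. Members were chosen by a rule on gene name and gene type that used no measured value: 16 synaptotagmins, 15 syntaxins, 8 syntaxin-binding genes, 6 synaptobrevins (the Vamp genes), 4 complexins, 4 Munc13 genes (Unc13), 4 RIM genes (Rims), 4 Rab3 genes, 4 SNAP genes, 3 SV2 genes, 3 synapsins, the synaptophysins Syp and Synpr, and Snap91. Earlier results of these data were known when the members were chosen. RNA was sequenced from 12 pools, each of 12 retinas of C57BL/6 embryos from several litters, with 3 libraries, numbered 4, 5 and 6, in each of 4 groups: mutant males, wildtype males, mutant females and wildtype females. Mutants were Tbr2 f/f;Six3-Cre, in which Cre recombinase is made in the developing eye field. The tables list Tbr2 as Eomes. The labels call the controls wild type and name neither Cre nor a floxed allele in them. Each pool held whole retinas, so all retinal cell types were measured together.

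Transmitter release works through SNARE proteins: a synaptobrevin on the vesicle zips together with a syntaxin and a SNAP protein on the cell membrane, and the membranes fuse. Syntaxin-binding proteins and Munc13 proteins prepare the SNAREs, RIM and Rab3 proteins hold vesicles at the release site, complexins clamp the assembled complex, and synaptotagmins sense calcium. Synaptophysins, synapsins and SV2 proteins sit on the vesicle itself. Many relatives in these families, such as several syntaxins, serve membrane traffic in every cell. Embryonic retina is still forming its neurons, ganglion cells first, and most retinal synapses form after birth. Tbr2 is a T-box transcription factor required for several retinal ganglion cell types, among them those that sense light themselves.

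Library totals ran between 18514607 and 27072825 counts. The members together took 0.361% to 0.391% of the counts in mutant libraries and 0.368% to 0.395% in wildtype libraries, and these ranges overlapped. Eomes, the deleted gene, was at 9.62 to 27.4 CPM (counts scaled to a common library total) in mutant and 53.4 to 76.1 CPM in wildtype libraries, with no overlap. The ganglion cell markers were all detected, at a summed 3654 to 4124 CPM in mutant and 3599 to 3912 CPM in wildtype libraries. Summed markers of the lens, a neighbouring tissue, reached 1743 CPM in mutant and 706 CPM in wildtype libraries, and the lowest were 3.67 CPM in mutant and 8.69 CPM in wildtype libraries. Mutant male 6 lay apart from the others on the first principal component, which took 33.1% of the variance. The mitochondrial transcript mt-Nd6 split the libraries: 5 had 373 to 484 CPM (mutant male 4, mutant female 4, wildtype male 5 and wildtype females 4 and 6) and 7 had 9.70 to 48.4 CPM.

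Across the release machinery the retina held a full set of families, and in most families, the syntaxins excepted, 1 or 2 genes supplied most of the summed level. Levels are TMM-scaled CPM per kilobase of listed gene length, so comparisons between genes rest on that length. For some members it is far from the longest annotated transcript. Unc13b is listed with 6354 bases against 14754, and Syt14 with 1731 against 9274. Of the 74 members, 11 had a mean wildtype level of at least 30, 22 lay between 10 and 30, 24 between 3 and 10, 5 between 1 and 3, and 12 below 1. The share at 10 or more was 44.6% of the members and 40.9% of all protein-coding genes.

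**Figure D1:**
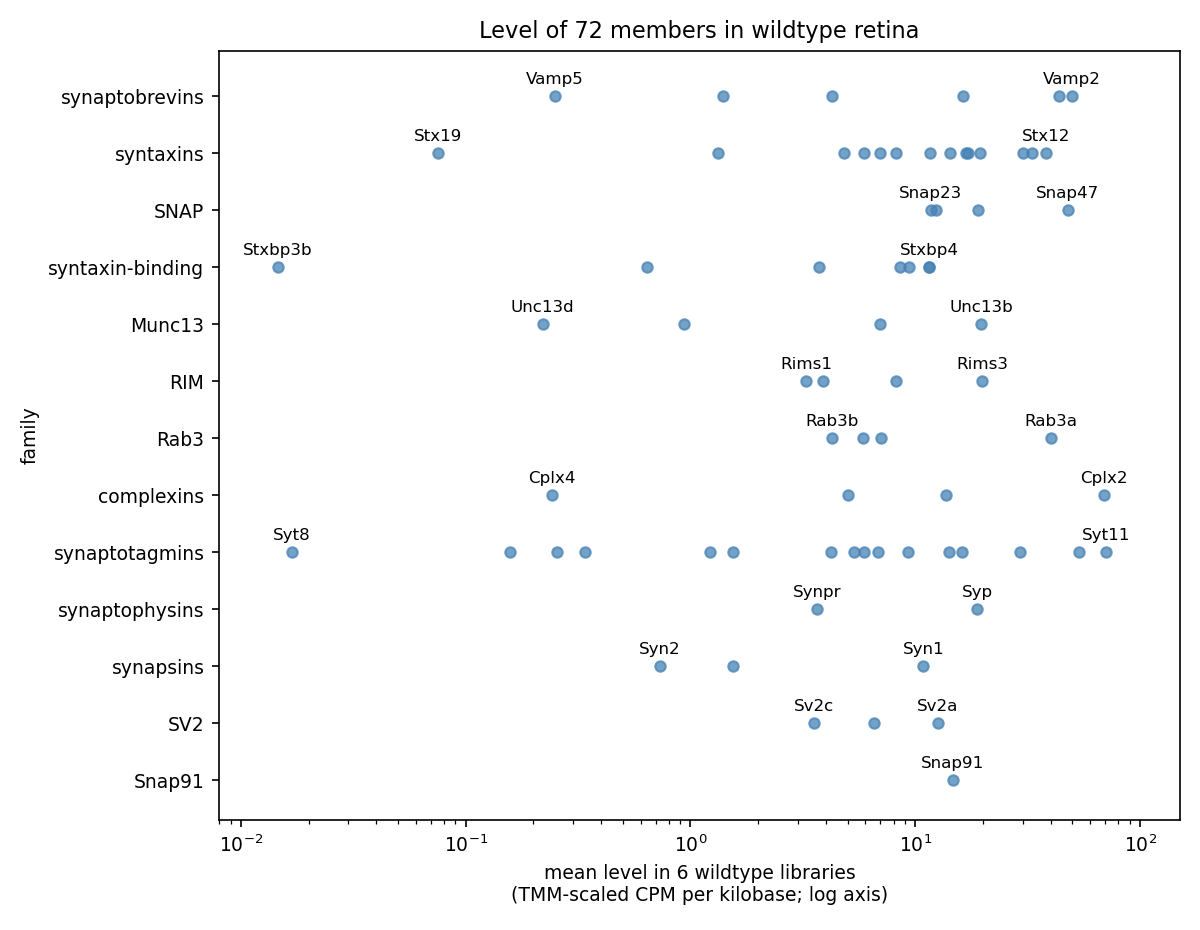
Mean level of 72 members over the 6 wildtype libraries, in TMM-scaled CPM per kilobase on a log axis, with 1 row per family. The highest and lowest member shown of each family is named. Cplx2 and Syt11 lie at the right, near 70, and Stxbp3b and Syt8 lie at the left, below 0.02.

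Among the SNAREs, Vamp2, the main neuronal synaptobrevin, stood at 46.0 ± 3.19 in mutant and 49.8 ± 2.32 in wildtype libraries (SD, n = 6 each, as for all levels). Vamp3, which serves constitutive traffic, followed at 41.6 ± 7.70 in mutant and 43.7 ± 3.62 in wildtype libraries. Together they carried most of the family, and Vamp1, the synaptobrevin of brainstem, spinal cord and muscle synapses, was at 1.34 ± 0.16 in mutant and 1.40 ± 0.15 in wildtype libraries. Vamp5, known from muscle, was the lowest at 0.31 ± 0.10 in mutant and 0.25 ± 0.11 in wildtype libraries. Endosomal members led the syntaxins shown. Stx12 had a level of 36.8 ± 5.11 in mutant and 38.3 ± 3.89 in wildtype libraries, and Stx7 had 32.1 ± 4.97 in mutant and 33.1 ± 3.93 in wildtype libraries. Stx1a, a syntaxin of synapses, was at 11.5 ± 1.89 in mutant and 11.6 ± 1.26 in wildtype libraries. Stx19 closed the family at 0.08 ± 0.07 in mutant and 0.08 ± 0.06 in wildtype libraries. In the SNAP family Snap47, found on internal membranes, led with 49.4 ± 2.98 in mutant and 47.7 ± 3.28 in wildtype libraries. Snap25, the SNAP protein of neuronal exocytosis, came next at 16.6 ± 3.19 in mutant and 19.1 ± 2.04 in wildtype libraries. Snap47 exceeded Snap25 in all 12 libraries, by 2.18 to 4.54 times in mutant and 2.12 to 3.10 times in wildtype libraries. Snap23, its relative in cells that are not neurons, was lowest at 10.5 ± 2.96 in mutant and 11.7 ± 1.05 in wildtype libraries.

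Among the syntaxin-binding genes Stxbp3b was lowest. It had 5 reads in all libraries together and none in 8 of 12. At the depths of the 12 libraries a count of 0 would allow up to 0.111 to 0.162 CPM (3 counts, counting error only). How reads that match both Stxbp3b and its close copy Stxbp3a were counted was not checked, so both values are uncertain. Among the Munc13 priming factors Unc13b was highest, at 20.2 ± 1.19 in mutant and 19.6 ± 1.24 in wildtype libraries, and exceeded the brain form Unc13a in all 12 libraries. This order uses the listed lengths, 6354 bases for Unc13b and 10255 for Unc13a. The longest annotated transcript of Unc13b has 14754 bases, and the order on that length was not examined. Unc13d, known from immune cell granules, was at 0.30 ± 0.11 in mutant and 0.22 ± 0.09 in wildtype libraries. Of the RIM genes, Rims3, a short form without the Rab3-binding end, gave 56.4% of the summed family level in both mutant and wildtype libraries. Rims1, the long active zone form, gave 9.35% in mutant and 9.27% in wildtype libraries. Rab3a, the vesicle GTPase of neurons, led its family at 38.7 ± 4.85 in mutant and 40.0 ± 2.94 in wildtype libraries, with Rab3b lowest at 4.22 ± 0.70 in mutant and 4.28 ± 0.65 in wildtype libraries.

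Cplx2 was the prevailing complexin, with 79.2% of the summed family level in mutant and 78.5% in wildtype libraries. Its level of 72.4 ± 10.9 in mutant and 69.2 ± 5.78 in wildtype libraries was next to that of Syt11. Cplx4, which with Cplx3 serves the ribbon synapses of the mature retina, was at 0.34 ± 0.21 in mutant and 0.24 ± 0.09 in wildtype libraries. The synaptotagmins were led by Syt11, at 73.3 ± 1.79 in mutant and 70.7 ± 2.32 in wildtype libraries. Syt13 followed at 55.7 ± 5.17 in mutant and 53.2 ± 2.83 in wildtype libraries, and both are known to lack calcium binding. Syt1, the fast calcium sensor, came after them at 26.5 ± 2.78 in mutant and 29.2 ± 3.25 in wildtype libraries. Its near relative Syt2 was at 0.35 ± 0.21 in mutant and 0.34 ± 0.05 in wildtype libraries. Syt8 had 5 reads in all, in mutant female 4 and wildtype female 6 alone, and none in the other 10 libraries. On the vesicle membrane, Syp, the classical vesicle marker, was at 19.3 ± 2.12 in mutant and 18.8 ± 0.65 in wildtype libraries, and Synpr, its relative, at 1.89 ± 0.76 in mutant and 3.66 ± 1.28 in wildtype libraries. Snap91, a clathrin adaptor of vesicle recycling, was at 14.4 ± 1.27 in mutant and 14.7 ± 0.91 in wildtype libraries. Sv2a led its family at 12.6 ± 1.67 in mutant and 12.6 ± 1.12 in wildtype libraries, and Sv2c was its lowest at 3.72 ± 0.47 in mutant and 3.54 ± 0.48 in wildtype libraries. Among the synapsins Syn1 was at 9.77 ± 1.54 in mutant and 10.9 ± 0.73 in wildtype libraries, and Syn2 at 0.62 ± 0.19 in mutant and 0.73 ± 0.15 in wildtype libraries. Neighbours in the order of wildtype levels mostly overlapped: 5 of the neighbouring pairs had separate ranges over the 6 libraries.

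Between mutant and wildtype retinas of both sexes, no member passed the threshold (edgeR quasi-likelihood test with sex as a term, adjusted p of 0.05 after Benjamini-Hochberg adjustment over all genes). Of the 74 members 71 had enough counts to be tested, and Stx19, Stxbp3b and Syt8 had not. Over all 15467 genes tested 4 passed, all lower in mutants, which is 0.0259%. At an unadjusted p under 0.05, 1 member was lower and 0 were higher, against 1.5% and 1.42% of all genes. DESeq2 and limma voom also called 0 members. Point estimates were lower in mutants for 41 members and higher for 30, with a median log2 fold change of -0.02 over members and -0.01 over all genes. For 65 of the 71 the estimate lay within 0.25 of 0 on the log2 scale.

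**Figure D2:**
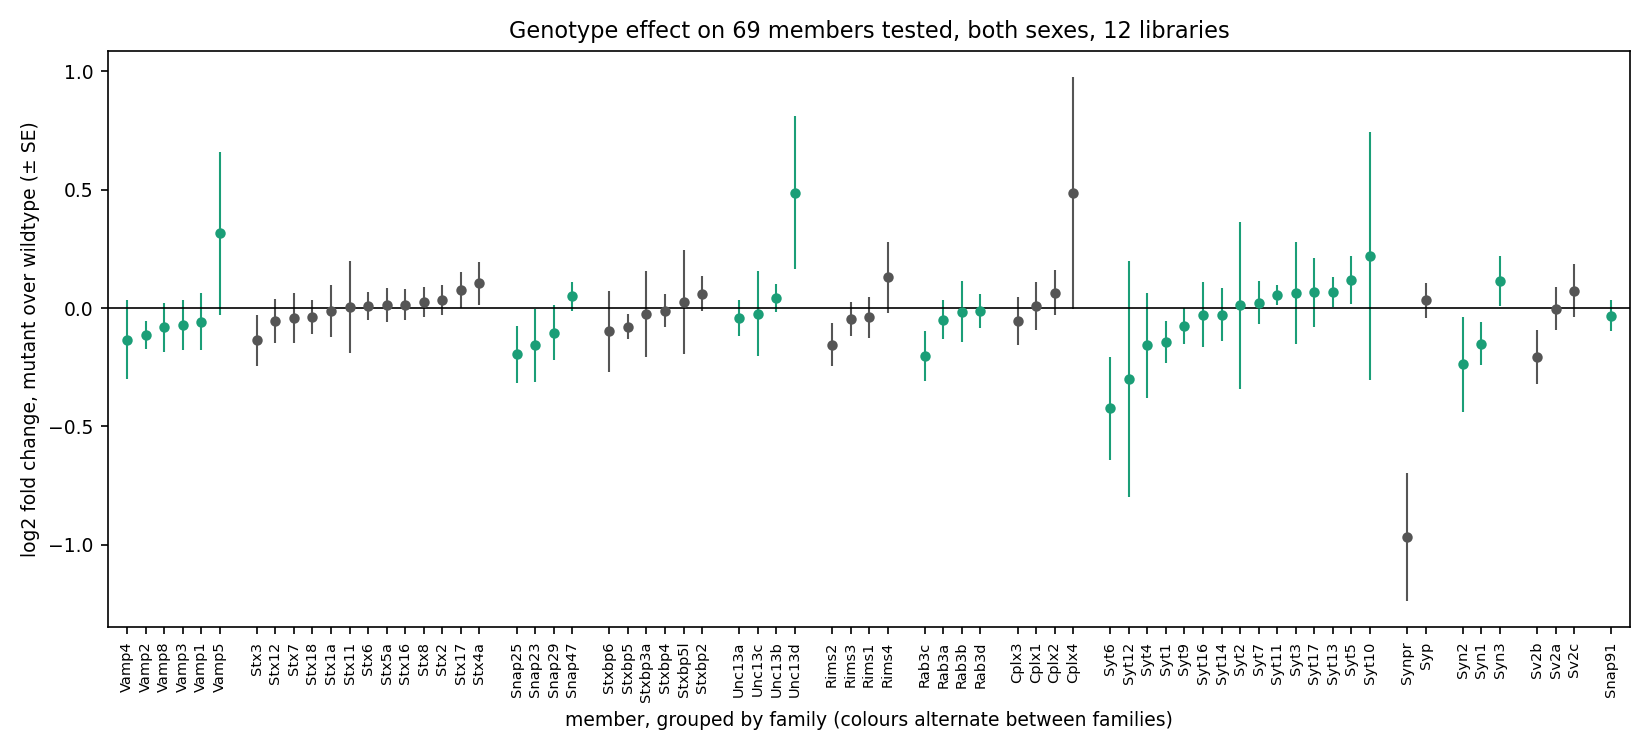
Log2 fold change, mutant over wildtype, with its standard error for 69 of the 71 members tested over 12 libraries, grouped by family. Synpr lies lowest at -0.97, and the wide error bars belong to members with few reads such as Cplx4, Syt12 and Syt10.

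Synpr (synaptoporin, ENSMUSG00000056296, mm10 chromosome 14 from 13284780 to 13615459, plus strand) had the largest fitted difference of the members. Mutant males 4, 5 and 6 had 13.9, 6.52 and 7.56 CPM, against 10.2, 21.1 and 15.3 CPM in wildtype males. Mutant females had 9.40, 5.30 and 5.87 CPM, against 14.8, 9.76 and 22.5 CPM in wildtype females. In females all mutant libraries lay below all wildtype libraries in CPM, and in males mutant library 4 lay above wildtype library 4. In TMM-scaled levels Synpr was equal in mutant female 4 and wildtype female 5, at 2.26. The log2 fold change was -0.97 with a standard error of 0.27, an unadjusted p of 0.00338 and an adjusted p of 0.918. In whole retina, fewer cells that express a gene and less RNA per cell cannot be told apart.

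Synpr also differed with the mt-Nd6 split. It averaged 16.4 CPM in the 5 libraries with high mt-Nd6 and 8.65 CPM in the 7 others, and its mutant and wildtype libraries separated within each of these sets. Among libraries with high mt-Nd6, mutants had 13.9 and 9.40 CPM and wildtypes 21.1, 14.8 and 22.5 CPM. Among libraries with low mt-Nd6, mutants had 6.52, 7.56, 5.30 and 5.87 CPM and wildtypes 10.2, 15.3 and 9.76 CPM. No other member separated in both sets in the same direction, and 0.356% of all genes did so downward. Within the high set the log2 fold change of Synpr was -0.81 ± 0.18 (SE, adjusted p = 0.461), and within the low set it was -0.82 ± 0.17 (SE, adjusted p = 0.439).

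With a term for the mt-Nd6 set in the fit of all 12 libraries, Synpr fell by 0.83 on the log2 scale (SE 0.13) with an adjusted p of 0.0233 by edgeR. It was then 1 of 9 genes called, 0.0582% of those tested. At an unadjusted p under 0.05 this fit had 2 members lower, Synpr and Syn1, and 0 higher, against 2.13% and 1.33% of all genes. The same term gave Synpr an adjusted p of 1.01e-06 with DESeq2 and 0.0458 with limma voom, fits added after the data were seen. The edgeR call held in 4 of 12 fits that each left out 1 library (mutant male 6, wildtype male 4, wildtype female 4 or wildtype female 6) and was lost in the other 8, with log2 fold changes of -0.90 to -0.74 and adjusted p of 0.0151 to 0.143. Without the 3 libraries highest in the lens gene Cryaa, and with no set term, Synpr had a log2 fold change of -0.66 and an unadjusted p of 0.0639. Those libraries were mutant male 5 and mutant female 5, low in mt-Nd6, and wildtype male 5, high in mt-Nd6. Leaving them out therefore also changed how the mt-Nd6 sets were spread over the genotypes. Estimates of the lens markers were higher in mutants at all 10 genes, with 0 called. Markers of amacrine cells, inhibitory interneurons of the retina, summed to 235 to 306 CPM in mutant and 260 to 335 CPM in wildtype libraries. Of the 9, all tested, 6 had lower and 3 had higher estimates in mutants without the set term, 7 had lower and 2 had higher estimates with it, and 0 passed the test in either fit. Their part in the Synpr difference was not tested.

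**Figure D3:**
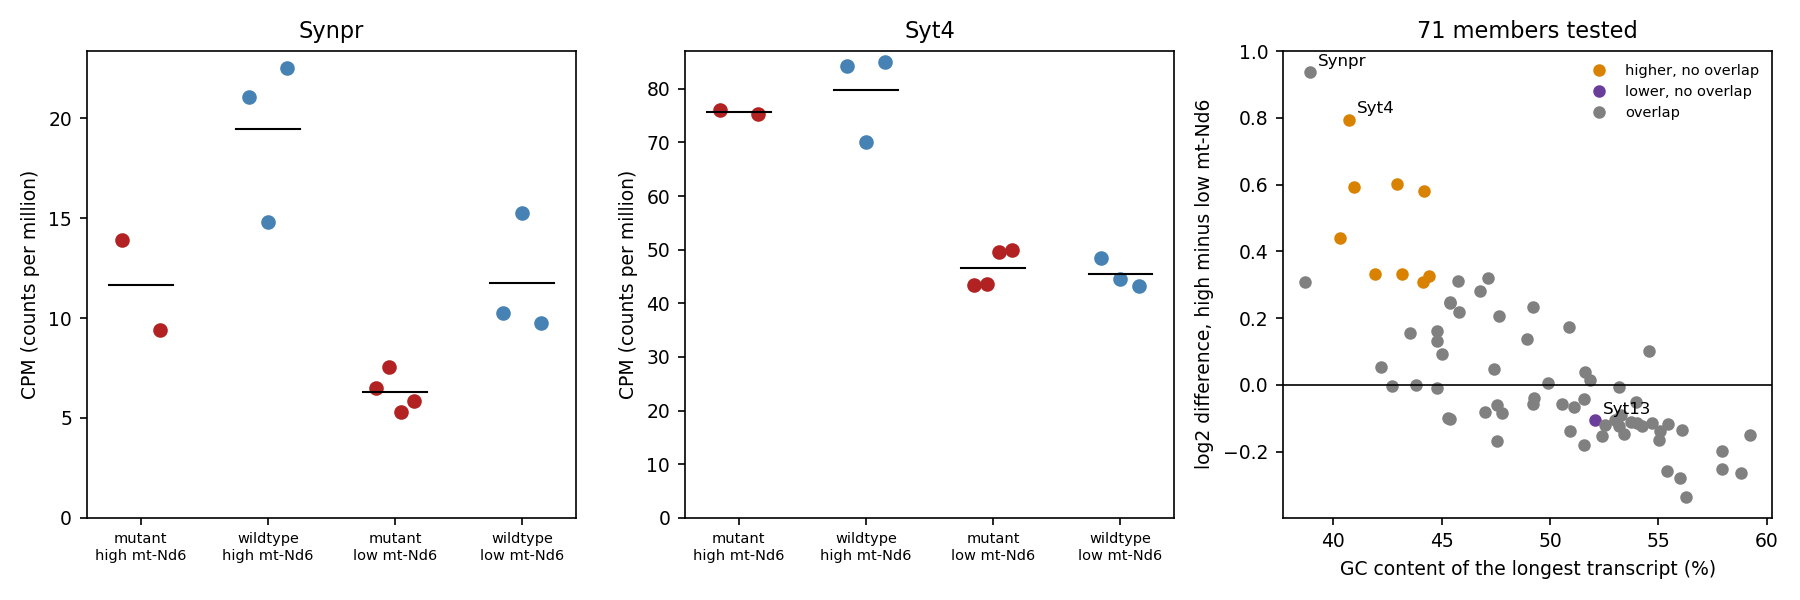
Synpr and Syt4 in CPM by genotype within the libraries high and low in mt-Nd6 (points are libraries, lines are means), and the log2 difference between the high and low sets against the GC content of the longest transcript for the 71 members tested. Synpr separates by genotype within both sets, while Syt4 separates by set, with 70.0 to 85.0 CPM in the high and 43.2 to 50.0 CPM in the low set.

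The promoter windows of Synpr and Syt6 are shown because these genes had the lowest fitted log2 fold changes of the members, and because Eomes, the deleted gene, encodes a T-box protein that binds DNA. Each window is the 250 bases before a RefSeq transcript start of GRCm38.p6, 5′ to 3′ along the gene's strand, and capitals mark the T-box core AGGTGT or its reverse complement ACACCT, searched on both strands. The windows are Synpr chr14:13284530-13284779 (plus strand), Synpr chr14:13453708-13453957 (plus strand) and Syt6 chr3:103574995-103575244 (plus strand).
Synpr, first start: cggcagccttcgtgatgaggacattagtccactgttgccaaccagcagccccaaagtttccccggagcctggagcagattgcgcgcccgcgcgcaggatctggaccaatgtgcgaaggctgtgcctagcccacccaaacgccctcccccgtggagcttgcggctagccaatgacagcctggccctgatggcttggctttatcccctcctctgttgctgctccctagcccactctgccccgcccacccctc
Synpr, second start: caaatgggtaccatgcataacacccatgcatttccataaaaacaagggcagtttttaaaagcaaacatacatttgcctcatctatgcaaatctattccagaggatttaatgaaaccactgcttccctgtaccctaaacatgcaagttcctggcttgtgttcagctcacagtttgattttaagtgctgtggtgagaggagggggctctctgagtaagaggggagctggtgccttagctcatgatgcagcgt
Syt6, first start: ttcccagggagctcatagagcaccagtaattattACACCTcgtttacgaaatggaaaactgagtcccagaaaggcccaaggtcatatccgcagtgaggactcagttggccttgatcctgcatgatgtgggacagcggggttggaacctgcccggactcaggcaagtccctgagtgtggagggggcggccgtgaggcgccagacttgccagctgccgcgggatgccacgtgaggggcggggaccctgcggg
Neither Synpr window held these letters, and the first of the Syt6 windows held them once, 216 bases before the start. Windows were found for 56 of the 74 members, and 11 of these, 19.6%, held the core in at least 1 window, against 13.6% of 27025 genes with a window. The 11 were Cplx2, Rab3a, Rims3, Snap23, Sv2b, Sv2c, Syt10, Syt11, Syt6, Syt8 and Unc13c. A match describes the letters and is no evidence of binding.

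Syt6, a synaptotagmin known from sperm and from neurons, had the next lowest fitted change over both sexes, -0.42 (SE 0.22, adjusted p = 0.918). Its 6 mutant libraries ran from 3.64 to 6.89 CPM with a median of 4.78, and its 6 wildtype libraries from 4.32 to 9.59 CPM with a median of 6.78. Without wildtype female 6 the log2 fold change was -0.27, and it was -0.88 in the libraries with high mt-Nd6 and -0.19 in the others. Vamp2 followed by p, at 85.4 to 108 CPM in mutant and 102 to 115 CPM in wildtype libraries, with a log2 fold change of -0.11 (SE 0.06, adjusted p = 0.918). Upward, small p belonged to Unc13d at 0.49 (SE 0.32) and Syt11 at 0.05 (SE 0.04), each with an adjusted p of 0.918. Unc13d had few reads, 0.715 to 1.66 CPM in mutant and 0.504 to 1.42 CPM in wildtype libraries, and the ranges overlapped for each of these genes.

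By family the fitted changes were small and mixed. The 14 syntaxins tested had 8 estimates above and 6 below 0, from -0.14 to 0.10 on the log2 scale, and the 15 synaptotagmins had 8 above and 7 below 0, with a median of 0.01. All 4 Rab3 genes were estimated lower, with a median of -0.03 and Rab3c lowest at -0.20 (SE 0.11). Of the 6 synaptobrevins 5 were estimated lower, with a median of -0.08, and Vamp5 was estimated higher at 0.32 (SE 0.35). The 4 SNAP genes had a median of -0.13, with Snap25 lowest at -0.20 (SE 0.12) and Snap47 highest at 0.05 (SE 0.06). Complexins, Munc13 genes and RIM genes had medians of 0.04, 0.01 and -0.04. The 3 synapsins had a median of -0.15, with 2 of 3 estimated lower. No family held a member past the threshold, and the synaptophysins held the only member at an unadjusted p under 0.05.

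In males alone no member was called, and no gene of the 14945 tested was (0%) by edgeR, with 6 genes but no member called by DESeq2 and none by limma voom. At an unadjusted p under 0.05, Syt6 was lower and no member was higher, against 0.689% and 0.716% of all genes. Syt6 (ENSMUSG00000027849) had 4.24, 4.97 and 4.59 CPM in mutant males, against 5.98, 7.58 and 8.44 CPM in wildtype males. The mutant libraries all lay below the wildtype libraries, with a log2 fold change of -0.67 (SE 0.20, adjusted p = 0.994). In mutant females Syt6 had 3.64, 6.28 and 6.89 CPM, against 4.32, 4.93 and 9.59 CPM in wildtype females, and there the groups overlapped. Synpr had a log2 fold change of -0.73 in males (SE 0.36, adjusted p = 0.994). In CPM, mutant males 4, 5 and 6 lay below all wildtype males for 4 members, Rims2, Sv2b, Stxbp5l and Syt6, and above them for Syt11, against 3.04% and 2.47% of all genes. In TMM-scaled levels Sv2b overlapped, at 5.98 in mutant male 4 and 5.97 in wildtype males 4 and 6. Unc13d had the smallest p upward, at 1.0 (SE 0.43, adjusted p = 0.994), with 0.715, 1.66 and 1.62 CPM in mutant males and 0.780, 0.703 and 0.504 CPM in wildtype males. Syt17 at 0.27 (SE 0.19) and Syt3 at 0.37 (SE 0.33) came next, and the value of Syt3 rested on mutant male 6: without it the log2 fold change was -0.05.

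**Figure D4:**
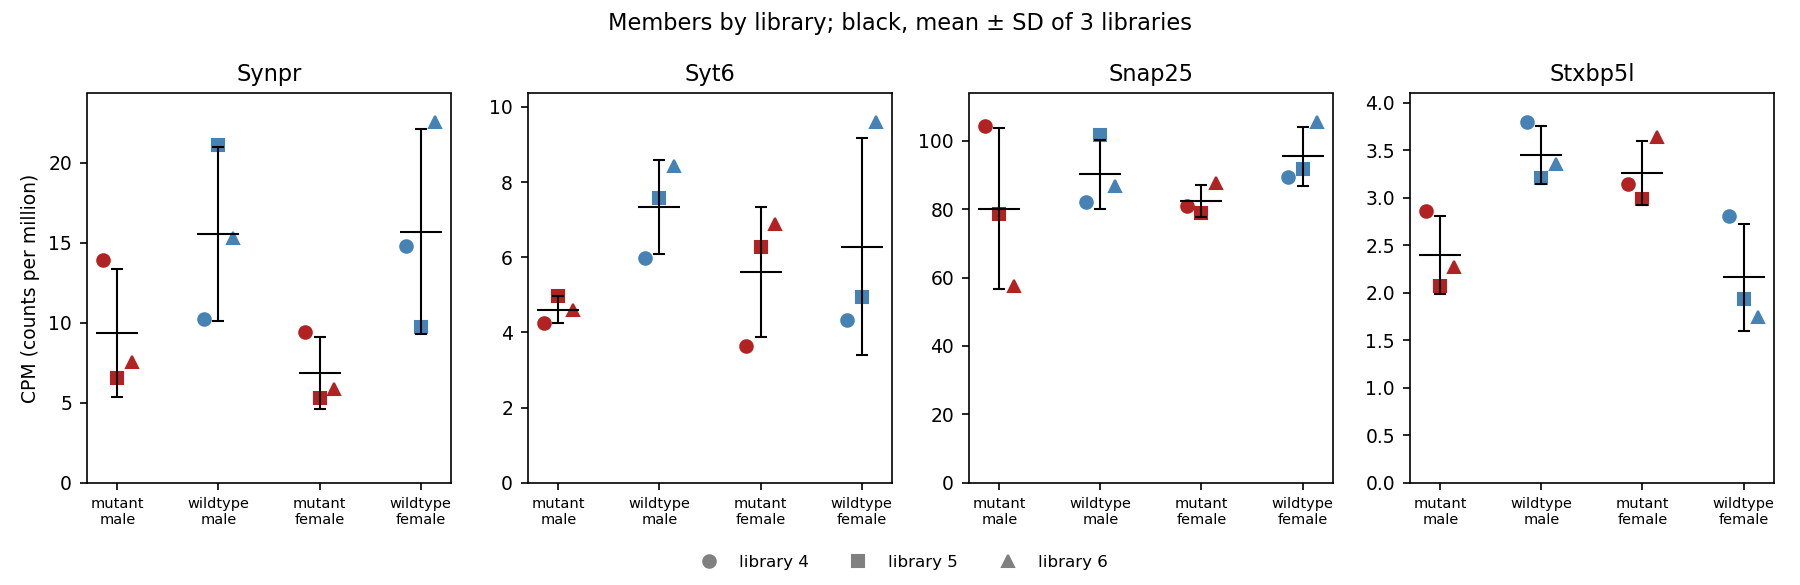
CPM of Synpr, Syt6, Snap25 and Stxbp5l in each of the 12 libraries, with symbols for the library numbers and the mean ± SD of each group of 3. Stxbp5l lies lower in mutant males and higher in mutant females than in wildtype libraries of the same sex, and Syt6 separates in males alone.

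In females alone no member was called either, and 1 of 14956 genes was (0.00669%), which was Eomes. Synpr and Snap25 were lower and no member was higher at an unadjusted p under 0.05, against 1.32% and 1.31% of all genes. Synpr had a log2 fold change of -1.19 (SE 0.34, adjusted p = 0.986). Snap25 had 80.9, 78.8 and 87.7 CPM in mutant females, against 89.5, 91.6 and 105 CPM in wildtype females. These groups did not overlap, though the highest mutant library and the lowest wildtype library were close, and the log2 fold change was -0.21 (SE 0.09, adjusted p = 0.986). In mutant males Snap25 had 104, 78.5 and 57.6 CPM, against 82.0, 102 and 86.9 CPM in wildtype males, a wider spread with overlap. Mutant females lay below wildtype females without overlap in CPM for 4 members, Snap25, Stx3, Stxbp5 and Synpr, against 3.89% of all genes. They lay above them for 3 members, Stxbp5l, Syt10 and Unc13b, against 4.21% of all genes. In TMM-scaled levels Stx3 overlapped, with mutant female 4 at 7.12 and wildtype female 5 at 6.88, and Synpr was equal in these libraries at 2.26. Unc13b had 132, 133 and 132 CPM in mutant females and 125, 129 and 110 CPM in wildtype females, and a log2 fold change of 0.12 (SE 0.08, adjusted p = 0.986). Syt13 was estimated at 0.07 (SE 0.07) and Vamp2 at -0.16 (SE 0.09), both with an adjusted p of 0.986.

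No member separated mutant from wildtype libraries in both sexes in the same direction. Stxbp5l, which encodes tomosyn-2, an inhibitor of SNARE assembly, separated them in opposite directions, as did 0.239% of all genes. It had 2.86, 2.07 and 2.27 CPM in mutant males, against 3.79, 3.20 and 3.36 CPM in wildtype males. In mutant females it had 3.15, 2.99 and 3.64 CPM, against 2.81, 1.93 and 1.75 CPM in wildtype females. The log2 fold change was -0.51 (SE 0.23) in males and 0.57 (SE 0.25) in females. The interaction of genotype and sex was 1.10 on the log2 scale (SE 0.33), with an unadjusted p of 0.00576 and an adjusted p of 1, so the difference between the sexes did not pass the threshold. No member and no gene of 15467 (0%) passed it for the interaction. Stxbp5l was the only member at an unadjusted p under 0.05, upward, against 0.944% of all genes upward and 0.782% downward. Next by p were Stx18, a syntaxin of the endoplasmic reticulum, at 0.23 (SE 0.13) and Vamp1 at 0.38 (SE 0.23) upward, and Unc13d at -0.97 (SE 0.61), Syt3 at -0.61 (SE 0.41) and Syt17 at -0.38 (SE 0.28) downward, each with an adjusted p of 1. Of the 68 members tested in both sexes, 26 were estimated lower in both and 15 higher in both, 10 were lower in males and higher in females, and 17 the reverse.

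**Figure D5:**
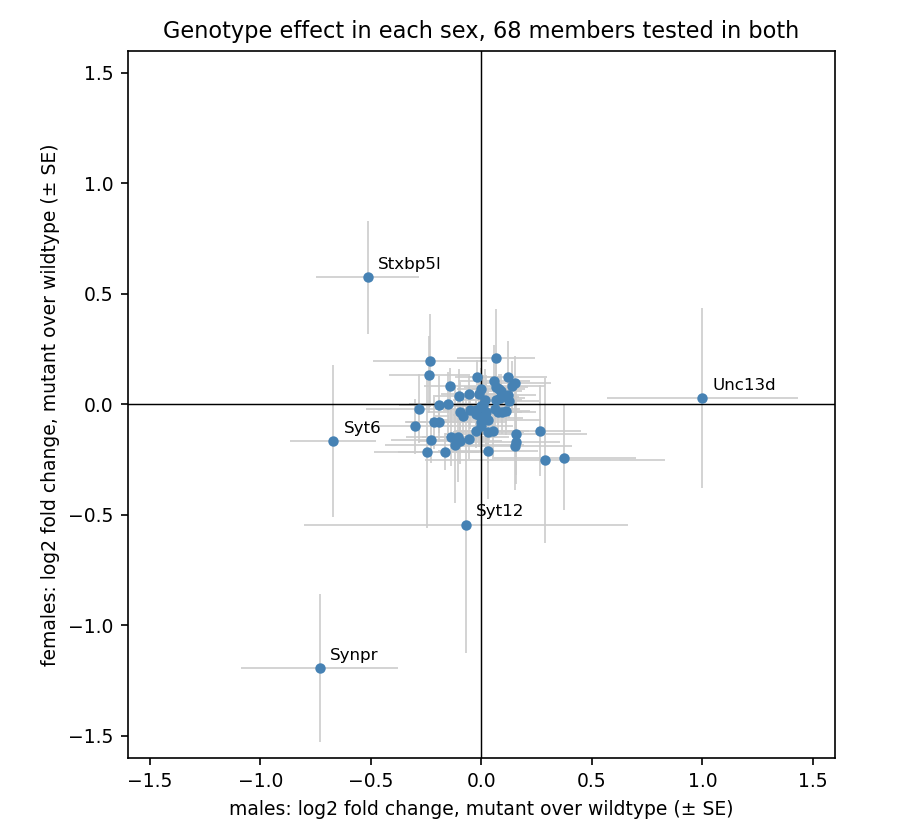
Log2 fold change, mutant over wildtype, with its standard error in males (horizontal axis) and females (vertical axis) for the 68 members tested in both. Most members crowd around 0 in both sexes, Synpr lies low in both, and Stxbp5l lies at -0.51 in males and 0.57 in females.

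Female and male wildtype retinas did not differ in any member past the threshold, and 1 gene of 15467 did (0.00647%). At an unadjusted p under 0.05, Stxbp5l was lower in females (log2 difference -0.64, SE 0.23, adjusted p = 1) and no member was higher, against 0.989% and 0.504% of all genes. This uses the same wildtype libraries as the genotype effects of Stxbp5l above. Stx18 at -0.17 (SE 0.09) and Vamp5 at -0.80 (SE 0.49) followed downward. Unc13d at 0.75 (SE 0.44), Rab3b at 0.29 (SE 0.18) and Stxbp3a at 0.36 (SE 0.26) had the smallest p upward.

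More members separated by the mt-Nd6 split than by genotype, for which no member separated 6 mutant from 6 wildtype libraries (0.0776% of all genes did so upward and 0.129% downward). In the 5 libraries with high mt-Nd6, 9 members lay above all 7 others without overlap (Syt4, Stxbp6, Stxbp3a, Vamp4, Snap23, Stx7, Rab3c, Vamp3 and Stx12), against 9.35% of all genes, and Syt13 lay below them, against 6.35%. Syt4, a synaptotagmin of dense core vesicles, had 70.0 to 85.0 CPM in the high set and 43.2 to 50.0 CPM in the low set. Vamp4, a SNARE of the Golgi and endosomes, had 50.9 to 53.5 CPM in the high set and 32.7 to 40.8 CPM in the low set. Syt13, with 184 to 198 CPM in the high set and 198 to 250 CPM in the low set, separated narrowly in CPM alone. In TMM-scaled levels its sets overlapped, with wildtype female 4 of the high set at 54.0 and wildtype female 5 of the low set at 52.4. The 9 members had a median GC content of 42.9% in their longest annotated transcript, from 40.3% to 44.4%, against 50.9% in members that overlapped and 49.9% in all genes. Synpr had the largest log2 difference between the sets of the 71 members, 0.94, with a GC content of 38.9%. Its sets overlapped, at 9.40 to 22.5 CPM in the high and 5.30 to 15.3 CPM in the low set. Over the 71 members GC content and the log2 difference between the sets had a Spearman rho of -0.81, and over 15369 genes one of -0.75, a description over genes that share the same 12 libraries. Both sets held both genotypes, with 2 mutant and 3 wildtype libraries in the high set and 4 mutant and 3 wildtype libraries in the low set.

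Genotype estimates of the whole set differed between these library sets. Within the high set, 13 of 72 members were lower and 1 was higher in mutants at an unadjusted p under 0.05, against 4.12% and 3.31% of all genes, and the median over members was -0.08. Syn1, which tethers vesicles to the cytoskeleton, had the smallest p at -0.44 (SE 0.08, adjusted p = 0.260), with 28.5 and 22.9 CPM in mutants and 37.1, 32.2 and 32.2 CPM in wildtypes. Rab3a at -0.25 (SE 0.08), Vamp2 at -0.22 (SE 0.07), Sv2a at -0.28 (SE 0.09), Cplx2 at -0.22 (SE 0.07) and Syt1 at -0.18 (SE 0.07) were among the 13, and Stxbp3a was the member that was higher. Within the low set, Synpr and Snap23 were lower and Cplx2 was higher, against 5.04% and 3.68% of all genes, and the median was 0.03. Cplx2 thus lay on opposite sides, at 0.26 (SE 0.09) in the low set, with 355, 447, 356 and 392 CPM in mutants and 353, 352 and 297 CPM in wildtypes. No member was called within either set, where 0.0188% of genes in the high and 0.0186% in the low set were. The high set has 2 mutant libraries only, 1 of them mutant female 4, which had the lowest summed CPM of the members of all libraries, 3606. The low set holds mutant male 6, which lay apart on the first principal component and had the 447 CPM of Cplx2. The difference between the sets was not tested.

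Wildtype libraries agreed closely for some members and not for others. Among members of at least 1 CPM, Syt11 had the smallest coefficient of variation over the 6 wildtype libraries, 2.71%, followed by Stxbp5 at 2.83% and Syp at 3.66%. Synpr had the largest, 34.1%, followed by Syt4 at 31.3% and Syt6 at 30.4%. The median was 9.73% over 66 members and 9.55% over 13721 genes of this level. Synpr and Syt4 were both higher on average in the libraries with high mt-Nd6, and wildtype Syt6 ran from 4.32 CPM in female 4 to 9.59 CPM in female 6.

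Genes of the same pathway outside the set held no called gene in the comparison of both sexes either. Of 9 active zone scaffold genes tested, which include Bsn and the liprins, 7 were estimated higher and 2 lower, with a median of 0.07. Of 6 vesicular transmitter transporters tested, 5 were lower, with a median of -0.20, and Slc18a2, the monoamine transporter, had the smallest p at -0.33 (SE 0.18, adjusted p = 0.918). Of 15 tested genes for SNARE disassembly, priming and sensing, 10 were lower and 5 higher. At an unadjusted p under 0.05, Napb, a cofactor of SNARE disassembly, was lower at -0.26 (SE 0.09) and Doc2a, a calcium sensor, was higher at 0.37 (SE 0.13). Napb had 44.7 ± 6.29 CPM in mutant and 53.2 ± 2.39 CPM in wildtype libraries, and Doc2a 15.6 ± 3.44 CPM in mutant and 12.0 ± 1.89 CPM in wildtype libraries (SD, n = 6 each). Of 14 other vesicle membrane genes 10 were lower and 4 higher, with a median of -0.03. Of 19 genes of vesicle recycling 9 were lower and 10 higher, and the endophilins Sh3gl2 at -0.24 (SE 0.09) and Sh3gl3 at 0.24 (SE 0.11) had an unadjusted p under 0.05 in opposite directions. All of these had an adjusted p of 0.918.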

How the data were processed

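RNA of 12 pools of embryonic retina was sequenced and 3 tables were deposited (all libraries, males, females). Per the submitters' processing notes, reads were aligned to mm10 with STAR 2.5, counted per gene with HTSeq 0.6.1 and compared with DESeq2. For the annotation release and the strand setting nothing is given in the sources used here. How reads of overlapping genes were assigned is therefore not known, and the handling of reads that match several close copies was not checked. Per the file headers, the authors deposited raw read counts, which are whole numbers, a normalised signal per library (the count over a constant of the library), FPKM values, log2 fold changes and p-values with adjusted p-values. Only the counts entered tests, and the FPKM served as an alternative scale for levels. The signal, the deposited log2 fold changes and the deposited p-values of the authors were not used. The tables of each sex held the same counts for the members they list, 72 in the table of males and 74 in that of females.

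Tests used edgeR 4.0.16 in R 4.3.3 on the table of both sexes: TMM scaling, filterByExpr on the groups compared, a two-sided quasi-likelihood test and Benjamini-Hochberg adjustment over all genes, with a threshold of 0.05. Genotype was fitted with sex as a term over 12 libraries and in each sex alone over 6. The interaction and the comparison of wildtype females with wildtype males were fitted with 4 group means. Standard errors come from the F statistic (absolute log2 fold change divided by its root). CPM is the count over the library total. Overlap between groups of libraries was judged on CPM, without TMM scaling. Levels per length use TMM-scaled totals and the listed gene length. limma 3.58.1 and DESeq2 1.42.0 gave alternatives, and figures were drawn with matplotlib. Each test was tested on simulated counts first. Library totals of 18514607 to 27072825 counts leave counting error small for all but the lowest members, and the p-values reflect differences among pools, not among embryos.

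The labels number the libraries 4, 5 and 6 in every group. They do not say whether same-numbered libraries belong together. Deviations of same-numbered libraries from their group means correlated at 0.21, 0.213 and 0.138 in females and at -0.205, 0.00822 and 0.292 in males. For differently numbered libraries the correlations were -0.359 to 0.184 in females and -0.374 to 0.436 in males. These values do not settle whether the numbers pair the libraries, and the main tests used no pairing. With replicate number as a block, 0 members were called in females, as without it.

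The members and lists were chosen with earlier results of these data known. Members are named by this rule: the 10 highest levels, the highest and lowest of each family, members without reads in 6 or more libraries, the 3 smallest p per direction in each comparison, members that separate in both sexes in the same direction, and the 3 largest and smallest coefficients of variation. Results of 2 members are not reported here. Other named genes were chosen after their values were seen. Alternatives were another test, another normalization, no filter on low counts, a block, a term for libraries above 100 CPM of mt-Nd6, each of these sets alone, each library left out, no sex term, and no libraries highest in Cryaa. Promoter windows are from RefSeq (GRCm38.p6), and GC content is of the longest GENCODE M21 transcript. Markers of horizontal cells, photoreceptors, bipolar cells, progenitors, pigment epithelium, microglia, blood and vessels were also counted, and 0 passed in the comparison of both sexes.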

Additional observations from a re-analysis of the deposited data

Results flagged for a closer look

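Stxbp5l lay lower in all mutant males than in all wildtype males and higher in all mutant females than in all wildtype females, and the female minus male difference of the genotype effects was 1.10 on the log2 scale. Its interaction did not pass the threshold after adjustment.

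Single libraries stood far from the other 5 of their genotype for a few members, in 6 of 74 groups examined. The rule flags about 1 group in 20 where values are independent and normally distributed. These groups share the same libraries, and some members were named for their variation. A group with reads in a single library is always flagged. The count of flags therefore cannot be set against that rate. In mutant male 6, Syt13 was at 249.6 CPM against 194.5 to 213.1 CPM in the other mutant libraries, and Syt3 at 6.43 CPM against 2.22 to 3.34 CPM. In the same library Unc13b was at 115.7 CPM against 129.4 to 132.7 CPM. Vamp2 was at 85.4 CPM in mutant female 4, against 100.8 to 108.4 CPM in the other mutants. Syt8 was at 0.0887 CPM in mutant female 4 and at 0.150 CPM in wildtype female 6, against no reads in the other libraries. These values rest on 2 and 3 reads, within what a count of 0 allows, so they cannot be told from the other libraries at this depth.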

How the results depend on the processing

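No member was called in any of the 5 comparisons under any alternative, except Synpr with a term for the mt-Nd6 set, where the count over both sexes was 1. With that term, leaving out single libraries gave 0 or 1 members called. Over both sexes the median log2 fold change of members was -0.0833 in the high mt-Nd6 libraries taken alone and 0.0295 in the low ones, and otherwise moved by less than the spread of 0.0328 between libraries of a group; the cause was not tested. With single libraries left out it reached 0.0053 in females (wildtype female 6), and the female minus male difference reached 0.024 (mutant female 4), 0.015 (wildtype female 6) and 0.0039 (mutant male 6), against -0.033 and -0.030 with all libraries. In males Syt3 had its lowest value, -0.049, with mutant male 6 left out and its highest, 0.58, with mutant male 5 left out. With replicate number as a block, 0 members were called in each comparison, though whether the numbers pair the libraries is not known. Without the mt-Nd6 term Synpr ranged from -1.18 to -0.66 over the alternatives. Over both sexes 0 to 22 genes were called in all, against 4, with 15 by DESeq2 and 22 by DESeq2 with the mt-Nd6 term, in females 0 to 10 against 1, and in males 0 to 6 against 0. All 189 alternative values of the wildtype levels moved by less than their SD, though none of them used another gene length. Depth limits Syt8, Stxbp3b and Stx19, which were not tested.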
